A study of Mus musculus with 4 samples.

Results

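Of the 2548 Ago2-bound features listed across the 4 libraries, 131 held reads in a single mutant library and 0 reads in the other 3. They were chosen by the deposited mean alone: a mean that is a whole number of 5 or more times the weight of 1 read in the shallowest library, within a relative error of 1e-10. These 131 features belong to 115 genes of the 1848 listed, all protein coding. Because the mean over all 4 libraries chose them, their presence in 1 library and their direction are descriptions here and carry no test.

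The libraries come from Ago2 PAR-CLIP, in which cells take up the photoreactive nucleoside 4-thiouridine, RNA is crosslinked to protein with ultraviolet light, and the fragments held by Ago2 are sequenced. The cells were B cell progenitors of C57BL/6 background, made by infecting single-cell suspensions of mouse fetal liver (E14.5) with a retrovirus coding for the Abelson kinase, with interleukin-7 in the culture. All 4 samples thus share the viral kinase, and all were given 500 µM 4-thiouridine for 5 h, crosslinked at 365 nm, treated with RNase T1 and precipitated with an antibody to Ago2. The wild type group has 2 libraries (Wa and Wb) and the Bim3'UTRmut/mut group, homozygous for a mutated 3' UTR of the cell death gene Bim, has 2 (Ma and Mb), called biological replicates by the labels. Whether a sample grew from 1 clone, and whether cells were sorted, is not given in the sources used here. Wa, Wb, Ma and Mb are names for libraries whose whole reads were recovered from the deposited means. Which replicate number each carries is not known.

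Ago2 carries microRNAs to target transcripts, so a feature can hold reads only where the transcript is made, a matching microRNA is loaded and the complex is captured. Ago2 is found in nearly all cell types, and the transcripts it holds therefore reflect the cell of origin. Mesenchymal cells such as fibroblasts secrete and remodel collagenous matrix, read platelet-derived growth factor through PDGF receptors and attach through focal adhesions. B cell progenitors instead depend on lymphoid transcription factors and cytokine receptors, and grow in suspension. In bulk libraries of this kind, fewer cells of a type and less RNA per cell cannot be told apart, and no RNA levels were used here.

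Mb was the shallowest library, with 14539 reads over all features, followed by Ma with 24625, Wb with 38804 and Wa with 160207. Their size factors were 0.452, 0.618, 1.09 and 3.68 in that order. The 131 features together held 1385 reads in Mb, 9.53% of that library (exact 95% Poisson interval 9.03 to 10.0%). Members were mostly small: 35 had 5 reads, 58 had 6 to 9, 26 had 10 to 19 and 12 had 20 or more, and the top 5 held 282 reads (20.4%). In the other libraries, features read in 1 library alone were 61 in Wa with 508 reads (0.317% of the library), 1 in Wb with 5 reads and 1 in Ma with 8 reads. The deepest library was thus not the one with most such features, and the shallowest had more of them than the other 3 together. Intervals and floors cover counting error only, since reads may include copies of one molecule.

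What a 0 in another library shows depends on its depth. One read was worth 2.21 normalized reads (reads divided by the size factor) in Mb and 1.62 in Ma. The smallest members, with 5 reads or 11.1 normalized reads in Mb, would have given 6.83 reads in Ma, 12.0 in Wb and 40.7 in Wa at the same normalized level, and 0 were read. The 3 reads that a count of 0 allows equal 4.86 normalized reads in Ma, 2.76 in Wb and 0.815 in Wa. Ma sets the weakest limit. At its measured level in Mb, before Mb's own counting error, a member with 5 reads was at least 2.28-fold above the 3 reads allowed in Ma, and 10 of the 131 were at least 10-fold above. With that error, the exact 95% interval of a member with 5 reads (3.59 to 25.8 normalized reads) reached below the limit in Ma, so at this depth a difference from Ma was not detectable for those 35. The intervals of the other 96, with 6 or more reads, lay above it, at 6 reads by little (4.87 against 4.86 normalized reads). The upper exact 95% bound of 0 reads in Ma is higher, at 5.97 normalized reads, and the intervals of 74 members lay above that. All such folds given here are at the measured level in Mb. Ma and Mb share their genotype.

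Mb stood apart from the other libraries in its cell type markers, and every value of the members rests on it: without Mb none has a read. Of 37 fibroblast and mesenchymal markers, 3 had a listed feature, and all 3 genes had their highest level in Mb, as had 36.8% of all single features. They were Pdgfra and Lox as members, and the intermediate filament gene Vim with 15, 8, 6 and 47 reads in Wa, Wb, Ma and Mb. Pdgfra and Lox are at 0 outside Mb by the rule, so Vim alone is free of it, with 103.9 normalized reads in Mb, 4.08 in Wa, 7.37 in Wb and 9.71 in Ma. The other 34 had no listed feature, among them the defining collagen genes Col1a1, Col1a2 and Col3a1 and the fibronectin gene Fn1. Ago2 features show only transcripts with occupied sites, so an unlisted marker gives no expression level. No gene of the lists for smooth muscle and pericytes, endothelium, hepatocytes, epithelium, erythroid cells, megakaryocytes and mast cells, macrophages and other myeloid cells, or embryonic stem cells had a listed feature. Among the cell type lists, members thus stood on 3: Pdgfra and Lox for fibroblasts, Bcl11b for T and NK cells and Map2 for neural cells.

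Markers of the labelled cell type were low in Mb. Of 39 B lineage markers, 11 had a listed feature and 0 had a member. Their summed level was 33.2 normalized reads in Mb and 285.6 to 314.0 in the other 3. In Mb 7 of the 11 genes were at 0 over all their features. Of all 2548 single features 641 were at 0, a share that is not counted by gene. Among the 7, Syk, Rag1, Il7r and Bcl11a had 0 to 6.45 normalized reads in each other library. That is below the 6.63 that 3 reads equal in Mb, so a 0 there shows no difference for them. Ikzf1, the lymphoid transcription factor Ikaros, held 351, 53, 80 and 0 reads in Wa, Wb, Ma and Mb. Foxo1, a factor needed for early B cells, held 96, 54, 23 and 4. Mef2d held 218, 49, 29 and 3 reads, Irf4 85, 70, 18 and 0, Bach2 143, 52, 15 and 2, and Kit 27, 2, 8 and 0. Sox4 was at 43.2, 15.7, 24.3 and 13.3 normalized reads in Wa, Wb, Ma and Mb, so Mb lay little below Wb. The 5 listed genes of a list of ubiquitously expressed genes summed to 115.0, 146.5, 136.0 and 64.1 normalized reads in the same order, so their sum too was lowest in Mb. Median deposited log2 fold changes in the authors' deposited table were 2.89 over the features of the fibroblast list and also for matrix, 1.61 for YAP and Hippo genes, 0.25 for TGF-beta and BMP and -0.58 for the B lineage, beside -0.07 over all features. Of genes with a feature at p under 0.05, unadjusted, the authors' deposited table had 3 of 3 fibroblast, 7 of 11 matrix, 8 of 16 YAP and Hippo and 0 of 11 B lineage genes higher in the mutant, and 0 of each lower, against 7.57% of all features higher and 0.903% lower. Those shares count single features, while a gene with several features has more chances. The rule used the authors' contrast, so nothing is read from the counts or medians where a list holds members. No feature of any list passed the adjusted p. The part of another cell type, of the depth of Mb and of its low B lineage signal in these features was not tested.

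**Figure D1:**
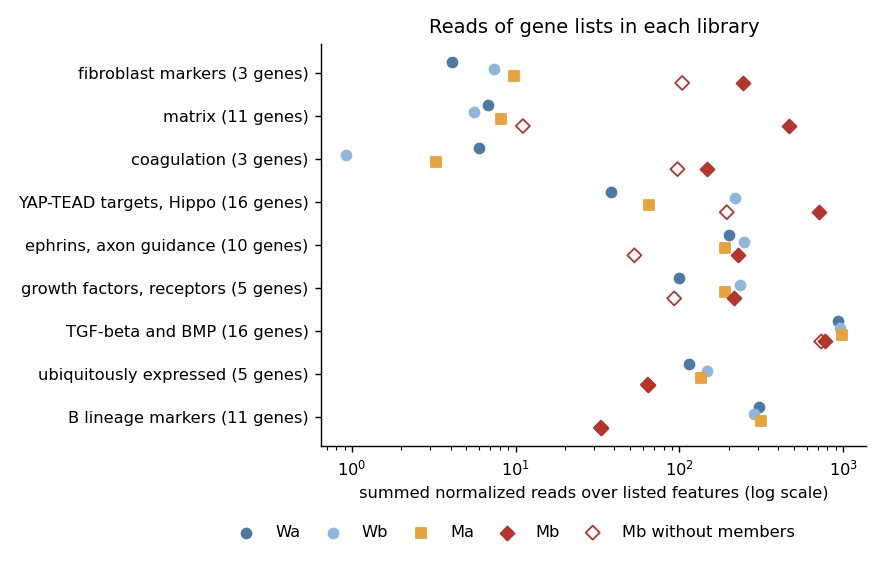
Summed normalized reads over the listed features of 9 gene lists, on a log scale, in each library (circles: wild-type Wa and Wb; square: mutant Ma; diamond: mutant Mb), with the number of listed genes in brackets; the open diamond leaves out the members, which are 0 in the other libraries by the rule. Without members the matrix list stood at 11.1 normalized reads in Mb against 5.53 to 8.09, the ephrin list at 53.1 against 189.4 to 247.8, and the B lineage markers, which hold none, at 33.2 against 285.6 to 314.0.

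**Figure D2:**
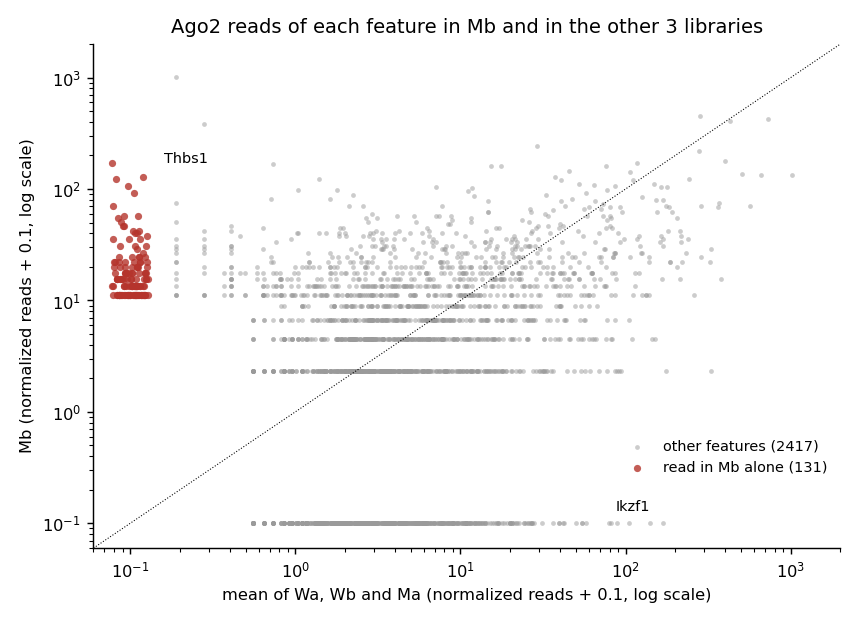
Each point is a feature, with its normalized reads in Mb against the mean of Wa, Wb and Ma, both with 0.1 added and on log scales; red points are the 131 features read in Mb alone, spread sideways at random so that ties can be seen, and the dotted line marks equal levels. The red points stand at 0 on the horizontal axis and start at 11.1 normalized reads in Mb, with Thbs1 highest among them, while Ikzf1 has 0 in Mb.

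Member genes whose products build or remodel the extracellular matrix made up the largest group among the lists used. Of 59 genes of the matrix list, 11 had a listed feature and 10 of these had a member, against 6.22% of all listed genes. Those 10 are listed only through their reads in Mb, so the rule and the listing shape this share and nothing is read from it. The same holds for the member features of each list below. Thbs1, the matrix glycoprotein thrombospondin-1, which binds cells and activates latent TGF-beta, led all 131 with 78 reads in Mb and 0 in Wa, Wb and Ma. This equals 172.4 normalized reads in Mb (exact 95% Poisson interval 136.3 to 215.2), at least 35.5-fold above Ma. Ccn2, connective tissue growth factor, listed as Ctgf, held 42 reads in Mb and 0 in each other library, or 92.9 normalized reads (66.9 to 125.5). Its relative Ccn4, listed as Wisp1, held 7. All 3 are secreted matricellular proteins, which signal to cells rather than bear load.

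Enzymes of the matrix and their inhibitors were read in Mb as well. Lox, lysyl oxidase, which crosslinks collagen and elastin, held 19 reads in Mb and 0 in Wa, Wb and Ma. The metalloproteinase inhibitor genes Timp3 and Timp2 held 19 and 11, and Adamts5, which cleaves the proteoglycan aggrecan, held 10. Structural members had 10 reads or fewer: Col4a1, a chain of basement membrane collagen, had 10, and Fbn2 (fibrillin-2) and Tnc (tenascin-C) had 5 each. Outside the list, and named after their values were seen, were the metalloproteinase gene Mmp19 with 8 reads and Sulf1, which trims sulfate from heparan sulfate, with 6. The listed matrix gene that had no member was Lamc1. Lamc1, a laminin chain, was read in all 4 libraries, with 25, 6, 5 and 5 reads in Wa, Wb, Ma and Mb. On the normalized scale Lamc1, the only listed matrix gene free of the rule, had 11.1 in Mb and 5.53 to 8.09 in the others.

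Secreted ligands and the proteins that bind them formed a further group. Igfbp3, which binds insulin-like growth factors in the extracellular space, held 58 reads in Mb and 0 in Wa, Wb and Ma, or 128.2 normalized reads (97.4 to 165.8), at least 26.4-fold above Ma. It was the single member among 3 listed genes of the insulin-like growth factor list; the receptor genes Insr and Igf2r held 0 and 1 reads in Mb. Ereg, the EGF receptor ligand epiregulin, had 2 member features with 7 and 5 reads, and with Pdgfra made 2 of 5 listed genes of the growth factor and receptor kinase list. Rspo2, an R-spondin that strengthens WNT signalling, held 18 reads, and Vasn, vasorin, a membrane protein that binds TGF-beta, held 17. None of the 3 listed genes of the WNT list, Znrf3, Axin2 and Apc, was a member. In the TGF-beta and BMP list 3 of 16 listed genes were members, all low in reads: Smurf1, a ubiquitin ligase for SMAD proteins, with 8 reads, the helix-loop-helix gene Id4 with 7 and the inhibitory SMAD gene Smad6 with 5. Without members that list summed to 734.0 normalized reads in Mb and 934.3 to 979.2 in the others.

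Several receptors at the cell surface were members, and Pdgfra was the only one of them on the fibroblast list. Pdgfra, platelet-derived growth factor receptor alpha, was the only fibroblast marker with several member features: its 3 listed features held 26, 11 and 7 reads in Mb, against 0 in the rest. Epha4, a receptor tyrosine kinase for ephrins, held 48 reads in Mb and 0 in Wa, Wb and Ma, or 106.1 normalized reads (78.2 to 140.7). Eph receptors and ephrins signal in both directions at contacts between cells. Further members were the receptors Ephb4 with 10 reads and Ephb3 with 6 and the ephrins Efna5 and Efnb2 with 5 each, along with Sema4c at 5. These made 6 of the 10 listed genes of the ephrin and axon guidance list. The 4 that were not members, Sema7a, Sema4b, Plxna1 and Sema6d, were read in both wild-type libraries, with 297, 254, 123 and 65 reads in Wa against 1, 9, 14 and 0 in Mb. The Eph receptor and ephrin genes of the list that had a listed feature were thus read in Mb alone, and without Mb would not be listed. On the normalized scale Sema7a, Sema4b and Sema6d were lowest in Mb, and Plxna1 lay close together in all libraries, at 33.4, 38.7, 38.8 and 31.0. The cytokine receptor genes Osmr (oncostatin M receptor), with 6 and 5 reads, and Il1r1 (interleukin-1 receptor), with 6, were members as well and are named after their values were seen.

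Adhesion and the actin skeleton were represented by fewer genes. Sdc2, the heparan sulfate proteoglycan syndecan-2, held 23 reads in Mb and 0 elsewhere, and the giant cadherin gene Fat4 held 9. They were 2 of 7 listed adhesion genes. The related syndecan gene Sdc1 was read throughout, with 28.7 normalized reads in Mb between the 10.1 of Wb and the 39.1 and 53.4 of Wa and Ma. Pdlim5, a PDZ-LIM protein of actin filaments, held 21 reads, and Lima1, which stabilises actin bundles, 5, together 2 of 8 listed genes. Cytoskeletal members outside the lists were Map1b, a microtubule-associated protein, with 16 reads, and, named after their values were seen, the formin gene Fmn1 with 8 and the kinesin genes Kif21a with 7 and Kif3b with 6.

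Genes that the transcription factors YAP and TEAD are known to switch on in adherent cells, listed together with the Hippo kinases that restrain them, had members in 8 of 16 listed genes. Thbs1, Igfbp3 and Ccn2 are on this list too, so it is not independent of the groups above. Its other members were F3, described below, with 14 reads, Ptpn14, a phosphatase that binds YAP, with 16 and 5, Fat4 with 9, and Ajuba (listed as Jub) and Arhgef17 with 7 each. Of the pathway's transcription factor and kinase genes, Tead1 held 45, 163, 4 and 12 reads in Wa, Wb, Ma and Mb, Stk4 37, 53, 13 and 4, Stk3 5, 1, 7 and 0, Lats1 17, 7, 8 and 2, and Lats2 13, 10, 3 and 15. Without members the list summed to 194.6 normalized reads in Mb, 218.3 in Wb, 64.7 in Ma and 38.3 in Wa. Single features weighed heavily in these sums: a second F3 feature gave 97.3 in Mb, and Tead1 gave 150.1 in Wb.

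Of 3 listed clotting genes 2 were members. F3, tissue factor, which starts coagulation, had a member with 14 reads and a second feature with 44 reads in Mb and 1 in each other library. F2r, the thrombin receptor PAR1, held 9 reads in Mb and 0 elsewhere. Serpinc1, the liver product antithrombin, had 21 reads in Wa, 1 in Ma and 0 in Wb and Mb.

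Arrdc4, an alpha-arrestin that is induced with its relative Txnip by glucose, held 56 reads in Mb and 0 in Wa, Wb and Ma, or 123.8 normalized reads (93.5 to 160.8). Txnip itself was read in all libraries and lowest in Mb, with 276.9, 300.3 and 129.5 normalized reads in Wa, Wb and Ma and 66.3 in Mb. Arrdc4 was the only member among 4 listed genes of its list. The remaining features with most reads belong to genes of mixed roles. Atp11a, a lipid flippase of the plasma membrane, held 32 reads, Apbb2, an adaptor of the amyloid precursor protein, 25, and Nrk, a kinase known from the placenta, 21, each with 0 in the other libraries. Lhfpl2, a tetraspan membrane protein, had 3 member features with 26, 9 and 5 reads.

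Of the 115 genes, 74 were on no list used here, and examples were chosen after their values were seen. Slc5a3, which carries myo-inositol into cells under osmotic stress, had 3 member features with 14, 7 and 5 reads. Bag3, a chaperone partner active in contractile and stretched cells, had features with 8 and 5 reads, and Ahnak, a giant scaffold protein beneath the plasma membrane, with 9 and 6. The serine protease gene Prss23 held 10 reads, the TGF-beta-induced leucine zipper gene Tsc22d1 held 9, and Rxra, partner of many nuclear receptors, held 8. Cacna1c, a pore subunit of voltage-gated calcium channels, held 5. All were at 0 in Wa, Wb and Ma.

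Member features from the lists of mesenchymal and patterning factors and of immediate-early genes had 8 reads or fewer. From the list of mesenchymal and patterning factors, 4 of 13 listed genes were members: the nuclear factor I genes Nfib with 8 reads and Nfia with 5, the chromatin protein gene Hmga2 with 7 and Sox11 with 6. Hmga2 is known as an embryonic gene and a let-7 target. Igf2bp1, an RNA-binding protein of the same oncofetal kind, had 2 member features with 10 and 5 reads and was named after its values were seen. The immediate-early list gave Fosl1, Ier3 and Fosl2, with 6, 6 and 5 reads in their member features, out of 13 listed genes. Fosl1 and Fosl2 encode subunits of AP-1. Runx1t1, a corepressor, held 16 and 5 reads. Bcl11b, best known from T cells, held 18 reads and was the only listed gene of the T and NK cell list; Map2, a microtubule protein of neurons, held 6 and was the only one of the neural list.

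Promoters of member genes were searched for short motifs of AP-1, TEAD and SRF, for the TATA box and for motifs of the B cell E proteins and EBF. Fosl1 and Fosl2 are themselves members, and AP-1, TEAD and SRF are known to act at genes of adherent cells. Windows ran from 250 bases before to 50 after the start, from the RefSeq promoter table of GRCm38.p6, which held 86 of the 115 genes in 128 windows. The AP-1 motif TGANTCA, on either strand, was found in 7.81% of member windows, 4.53% of windows of listed genes without a member and 7.81% of all windows in the table. The SRF CArG box was in 3.12%, 1.15% and 1.63%, and CAGCTG, the E-box of B cell E proteins, in 24.2%, 13.9% and 16.3%. The TEAD motif GGAATG was in 10.2% of member windows, 202 of the 1832 windows of listed genes without a member and 14.7% of all. The TATA box TATAAA was in 7.03%, 5.57% and 13.6%, and the palindromic motif of the B cell factor EBF in 1.56%, 1.09% and 0.904%, all on either strand. The median GC content of the windows was 64.7%, 63.3% and 52.7% in the same order, and its part in these shares was not tested. Of the 10 AP-1 and 4 CArG matches in member windows, 0 overlapped another motif searched. Some are shown, with the match in capitals, for the clotting genes F3 and F2r, the cytokine receptor Osmr, the semaphorin Sema4c, the actin binder Lima1 and Arrdc4, because these members carry the roles described above. The first 5 lines are AP-1 matches and the last 2 are CArG boxes.
F3, chr3:121723380-121723409, plus strand: cgcggcgctgtTGAATCAcggttgagtcac
F3, chr3:121723391-121723420, plus strand: tgaatcacggtTGAGTCAcccctttcgggg
F2r, chr13:95618652-95618681, minus strand: ccccgaggggcTGAGTCActcccaggcttg
Osmr, chr15:6874292-6874321, minus strand: tgccccgtagtTGATTCAtagctggggcgc
Sema4c, chr1:36558385-36558414, minus strand: ggcgcagacctTGACTCAcgagctgcaaga
Lima1, chr15:99820177-99820206, minus strand: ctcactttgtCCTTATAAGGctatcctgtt
Arrdc4, chr7:68749429-68749458, minus strand: cttgctcccaCCAATAAAGGtcctgtgcac
The F3 windows overlap and show 2 AP-1 matches 11 bases apart. A match describes letters only, and the share of member windows with AP-1 was the same as over all windows in the table.

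**Figure D3:**
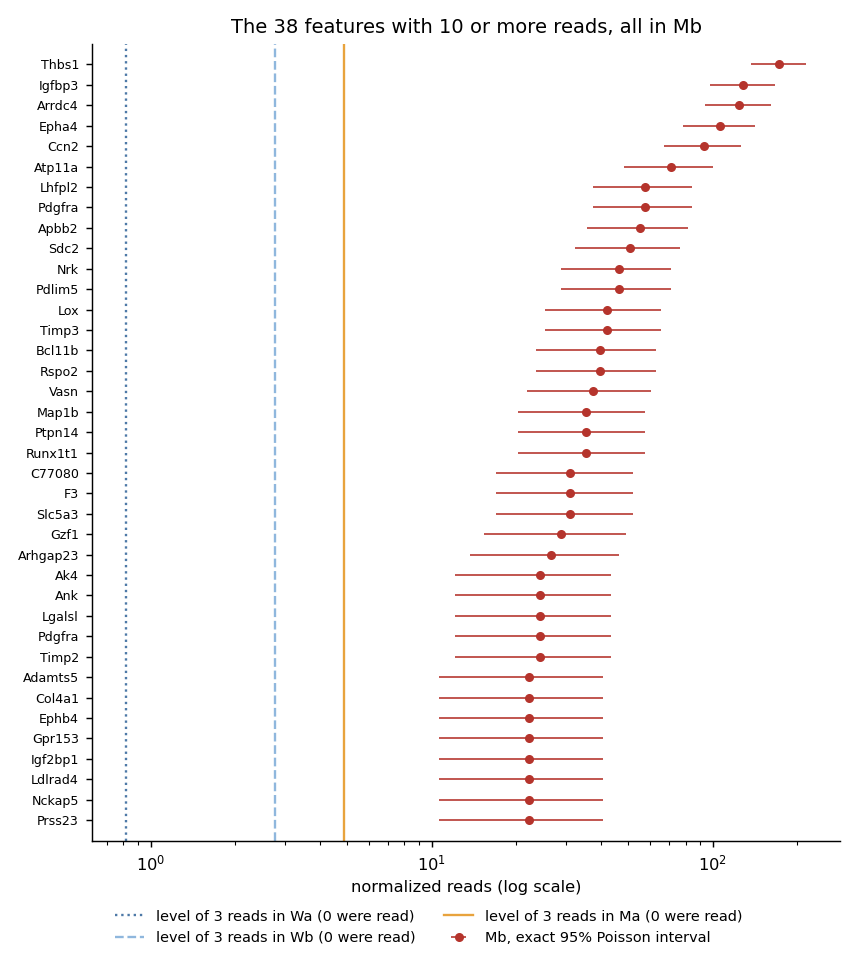
Normalized reads in Mb, on a log scale, of the 38 features with 10 or more reads, with exact 95% Poisson intervals; vertical lines mark the level that 3 reads would have in Wa, Wb and Ma, where 0 were read. All 38 intervals lie above the line for Ma at 4.86 normalized reads, with Thbs1 at 172.4 and the lowest features at 22.1; Pdgfra appears at 57.5 and 24.3 because it has several features.

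Features of member genes that the rule did not pick were looked at as well, though in the same library. Of the 115 genes, 90 had 1 listed feature, 13 had 2 or more member features, and 12 had a further feature that was not a member, 22 such features in all. Of these 22, 17 had their highest normalized level in Mb (77.3%), against 790 of the 2395 features of genes without a member and 36.8% of all features. Every listed feature had at least 5 reads in some library, and several of the 17, such as those of Apbb2, Clip4 and F3, had that many in Mb alone. For those the listing fixed Mb as the highest. A Bag4 feature with 5 reads in Wa was highest in Mb on 1 read. Nothing is therefore read from the 77.3%. Itpripl2, the member gene with most listed features, had a member with 6 reads and 3 other features with 43 reads in Mb together, 13 in Wa, 0 in Wb and 1 in Ma. Apbb2 had 2 further features with 12 and 8 reads in Mb, each with 1 read in Wb and 0 in Wa and Ma. Fosl2 had 2 with 19 and 6 reads in Mb and 5 reads elsewhere together. The 5 features that were not highest in Mb belonged to Stxbp5, Snx18, Bag4 and Zmpste24. Stxbp5, a syntaxin-binding protein, had 31, 13 and 1 reads in Wa, Wb and Ma in its other features against 1 in Mb, and Snx18, a sorting nexin, 25, 1 and 5 against 3. Dcp2, the mRNA decapping enzyme, had 11, 11, 3 and 14. Sites of one transcript and one library are not independent, and no test was made of these counts.

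A share of at least 90% of normalized reads in Mb was reached by 209 features, 8.2% of all, the 131 members included. Just outside the rule stood features with reads in Mb and 1 or 2 reads elsewhere, 68 in number with 1367 reads in Mb. They reached higher than the members. Lurap1l, listed as D4Bwg0951e, held 173 reads in Mb and 2 in Wa. The chemokine gene Cxcl12, a product of stromal cells that retains B cell progenitors in the marrow, had 2 features with 34 and 23 reads in Mb and 1 read each in Wa. Pkd2, the cation channel polycystin-2, held 76 reads in Mb, 1 in Wa and 1 in Ma. Just inside stood the 35 members with 5 reads, such as Tnc and Efnb2. A further 11 features were read in Ma and Mb (5 or more reads in Mb) and in neither wild-type library, and in each Mb held more reads than Ma. The floor of 5 reads was set on Mb and not on Ma, so nothing is read from that direction. These 11 included Glis2, a zinc finger factor, with 1 read in Ma and 13 in Mb, and Frmd6, a Hippo pathway gene, with 1 and 6.

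The authors' own values for members depended on the number of reads alone, since all else was 0. In the authors' deposited table, 87 of the 131 members (66.4%) had an unadjusted p under 0.05, all higher in the mutant, against 7.57% of all 2548 features (0.903% were lower); the rule used this contrast, and nothing is read from the share. None passed a Benjamini-Hochberg adjusted p of 0.05 computed over the authors' deposited table, where the smallest adjusted p was 0.531 among members and 0.165 among all features.

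The deposited values did not rise with the reads throughout. In the authors' deposited table the log2 fold change (mutant against wild type) climbed from 2.63 for the 35 members with 5 reads to 3.91 for Lox and Timp3 with 19, and was 1.24 for Pdlim5 and Nrk with 21. From there it stayed between 1.24 and 1.25 up to Thbs1 with 78 reads. The unadjusted p of the authors' deposited table went with it, from 0.0607 at 5 reads down to 0.00382 at 19, then 0.0961 at 21 and 0.0392 at 78. All 84 members with 6 to 19 reads were therefore under 0.05, but 3 of the 12 with 20 or more reads, Thbs1, Igfbp3 and Arrdc4, and 0 of the 35 with 5 reads. Epha4, with 48 reads, had p = 0.0555 in the authors' deposited table, and Ccn2, with 42, had 0.0609. A single read in Ma went with other values: Itpripl2, with 20 reads in Mb and 1 in Ma, had a log2 fold change of 4.87 and an unadjusted p of 0.000522 in the authors' deposited table. Ranking these features by the deposited fold change or p therefore does not rank them by reads. With limma's voom on the recovered reads, log2 fold changes of members rose with reads from 3.32 at 5 reads to 5.44 for Thbs1, and none passed an adjusted p of 0.05 (smallest 0.797) or an unadjusted one, which 2.94% of all features passed in the direction of the mutant. By voom without Wb, which left 1 wild-type library, the median log2 fold change of members was 4.74, against -0.0156 over all features. Without Wa it was 2.66, against 0.147 over all features. Without Ma all 131 passed an adjusted p of 0.05 (13% of all features did), and without Mb no member had reads to test. The rule fixed the reads behind all of these, and nothing is read from them. Why the deposited values break between 19 and 21 reads was not tested.

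**Figure D4:**
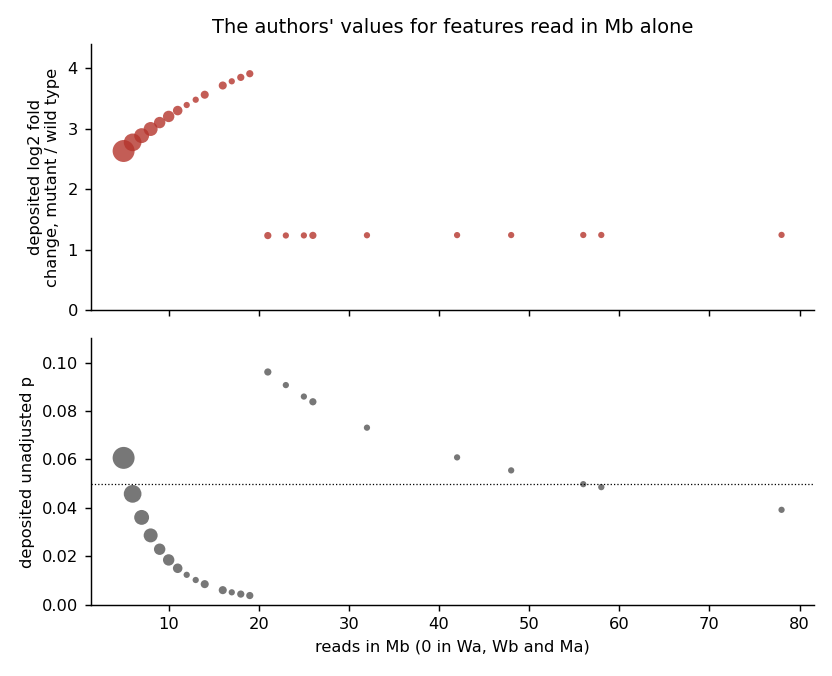
The authors' deposited log2 fold change (upper panel) and unadjusted p (lower panel, dotted line at 0.05) of the features read in Mb alone, by their number of reads in Mb; the area of a point grows with the number of features that share it, from 1 to 35. Both panels break between 19 and 21 reads, where the log2 fold change goes from 3.91 to 1.24 and p from 0.00382 to 0.0961.

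The 131 features were spread over the genome, on 20 chromosomes, with at most 10 genes on 1 of them (chromosome 15), 3 genes on X and 0 on Y. Member genes spanned a median of 54.4 kb in the RefSeq gene table of GRCm38.p6, against 33.4 kb for listed genes without a member and 44.2 kb for the genes read in Wa alone. Of these 61 genes, 1 was on any of the lists used here, against 41 of the 115 member genes (35.7%) and 122 of all 1848 listed genes. The lists were chosen with earlier results of these data known, so the share of member genes on them is not independent evidence.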

How the data were processed

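The table analysed is the authors' own comparison of 2 mutant with 2 wild-type libraries, 1 row per feature. Per the submitters' processing notes, CASAVA 1.8.2, BWA 0.7.12-r1039 and DESeq2 were used, with builds mm9 and NCBIM37; how features were defined is not given in the sources used here. Per the file headers, the authors deposited a mean of reads over size factors (a normalized signal), a log2 fold change and an unadjusted p-value. Every feature had at least 5 reads in some library. Features have no coordinates here.

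Each mean is a sum of whole reads weighted per library. Weights were found from the lowest means, and all 2548 features had exactly 1 solution (largest misfit 5.26e-13). Of 2165 slightly shifted means 0 had a solution, and 2241 of 2241 simulated features were recovered. The mutant side was taken as the pair whose sign matched the deposited log2 fold change in 98.8% of features (67.4 and 67.6% for the other pairs). Benjamini-Hochberg adjustment ran over all features. limma 3.58.1 (voom, R 4.3.3) was an alternative. On simulated reads it recovered 28 of 100 4-fold and 96 of 100 16-fold changes among 1952 features, with 7 false calls. Those changes were set in both mutant libraries, at a dispersion of 0.3, in features also read outside Mb. They give no recovery rate for the members, which are read in Mb alone. P-values measure the spread between these libraries only. A gene counts as B lineage and so on by lists of textbook genes. All 131 features matched the RefSeq gene table (GRCm38.p6), used for symbols, spans and promoters. Members and lists were chosen with earlier results of these data known. Named were the 20 members with most reads, up to 4 per list, up to 8 listed markers per cell type, up to 10 features just outside the rule and up to 8 member genes with further features, by reads; other genes, list members past the first 4 included, were chosen after their values were seen. One gene is not reported here and was left out of the lists.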

Additional observations from a re-analysis of the deposited data

How the results depend on the processing

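With 2 libraries a side, and members defined by the mean of all 4, leaving out Mb removes every member. No paired analysis was possible because the recovered libraries carry no replicate numbers. The 131 members became 38 with 10 or more reads, 12 with 20 or more and 209 when at least 90% of normalized reads in Mb was asked for. A relative error of 1e-08 gave 131, up to 1 read elsewhere 173, genes 115, and, chosen after seeing the data, 128 without 3 rows that repeat another row exactly (at Snx7, Peg10 and Marchf8). Members with a deposited p under 0.05 were 29 with 10 or more reads, 3 with 20 or more and, also chosen after seeing the data, 0 of 131 by voom. Without asking for 0 reads in Ma, another such choice, 142 features qualified. Reads in Mb of the members were 797 for those with 10 or more and 456 with 20 or more, and 1307 without Thbs1. Member genes with another feature fell from 12 to 2, and those on the functional lists from 39 to 16, at 10 or more reads; on the cell type lists they were 4, and 3 at 10 or more reads. Over all features the 0 calls in either direction became 193 (higher) and 23 (lower) without adjustment of p. By voom they were 0 with all libraries (unadjusted, 75 in the direction of the mutant and 4 in the other). Leaving out 1 library gave 0 to 330 higher and 0 to 26 lower, the highest without Ma, when Mb alone, assumed to vary like the others, stood against the wild type; all 131 members were then among those higher (13% of all features), as their choice by 0 wild-type reads fixes. Of the 18 lists with a listed gene, counts of members moved by over 1.5 times in 10 at 10 or more reads and in 1 with the 90% rule.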
